A study of Homo sapiens with 36 samples.

Results

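The 37 genes described here encode voltage-gated sodium channels and voltage-gated calcium channels with their accessory subunits, out of 62710 genes counted in the series. They were chosen by gene symbol, with no measured value in the rule but with earlier results of these data known. The set holds 11 sodium channel genes (the pore subunits SCN1A, SCN2A, SCN3A, SCN4A, SCN8A, SCN9A, SCN10A and SCN11A, and the beta subunits SCN2B, SCN3B and SCN4B) and 26 calcium channel genes (10 CACNA1 pore subunits, 4 CACNA2D alpha-2-delta subunits, 4 CACNB beta subunits and 8 CACNG gamma subunits). All 37 symbols were found, each on 1 gene identifier, and all 37 matched GENCODE 29 on GRCh38.

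The study followed H9, an established human embryonic stem cell line, as it was turned into neurons by doxycycline-dependent expression of NGN2, a transcription factor that drives stem cells to a neuronal fate. Every group carried this system, and the cultures were kept in Neurobasal-A with GlutaMAX, B27, GDNF, NT3 and CultureOne. Cells labelled WT, heterozygous for RAI1 (HET) or RAI1 knockout (KO) were collected at days 0, 3 and 7, with 4 biological replicates in each of the 9 groups, 36 libraries in all. RAI1 encodes a chromatin protein. Whether a genotype was 1 clone or several is not given in the sources used here, and p-values measure the spread between the 4 replicates of these lines. The comparisons with WT ask how expression at each day depends on the RAI1 genotype. The KO and HET comparisons of a day share the same 4 WT libraries and are not independent.

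A voltage-gated sodium channel is a single large pore subunit that opens on depolarisation and carries the rising phase of the action potential, and its beta subunits tune gating and anchor it at the membrane. A voltage-gated calcium channel has a CACNA1 pore. In the L, P/Q, N and R types it is joined by an alpha-2-delta and a beta subunit that bring it to the membrane. The gamma family includes muscle channel subunits as well as proteins that traffic glutamate receptors. In neurons, sodium channels gather at the axon initial segment, while P/Q-type and N-type calcium channels at terminals trigger transmitter release, L-type channels signal to the nucleus, and T-type channels open near rest. Developing brain neurons are known to use SCN2A and SCN3A before SCN8A becomes prominent, and SCN9A, SCN10A and SCN11A are best known from sensory neurons.

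Library totals ran from 23948079 to 56678796 counts. Levels are given below as CPM, counts scaled to library size with TMM factors, and a gene is said to have risen or fallen where edgeR's quasi-likelihood test gave a Benjamini-Hochberg adjusted p under 0.05 over all genes of the fit. RAI1, the targeted gene, was not lower in the libraries labelled KO or HET. It was at 22.2 to 40.2 CPM in WT, 28.0 to 47.2 in HET and 23.6 to 48.8 in KO at day 0 and at 41.7 to 79.1, 40.3 to 85.0 and 37.9 to 107 at day 3. At day 7 RAI1 was at 37.5, 49.4, 48.8 and 73.8 CPM in WT, 76.7, 80.4, 85.7 and 50.5 in HET and 88.3, 95.7, 90.9 and 63.9 in KO (KO log2 difference 0.69, adjusted p = 0.0296). Counts per gene therefore do not check the genotype labels, and every direction below follows the labels. The summed level of 8 neuronal markers was 237 to 494 CPM in WT at day 0 and 5595 to 11482 at day 7. At day 3 that sum was 1326 to 1633 CPM in WT, 1879 to 4594 in HET and 4739 to 7929.6 in KO, and at day 7 it was 11294 to 13889 in HET and 11966 to 15076 in KO. Dividing-cell markers (6 genes) summed to 1371 to 2392 CPM in WT, 1447 to 2041 in HET and 435 to 1222 in KO at day 3, and to 70.2 to 228, 42.9 to 50.0 and 41.5 to 48.8 at day 7. No neuronal or dividing-cell marker was at 0 in any group of days 3 and 7, and their part in the channel results was not tested. In bulk RNA, fewer cells of a type and less RNA per cell cannot be told apart. Replicate 1 of HET at day 7 had 27.5% of its counts in 5 small structural RNAs, against 2.84% to 13.4% in the other HET libraries, 14.5% to 25.6% in WT and 9.90% to 15.8% in KO. Replicate 1 of WT at day 7 had the lowest neuronal marker sum (5595 CPM, against 9205 to 11482 in the other WT libraries) and the highest dividing-cell sum (228 against 70.2 to 123).

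Promoter windows from RefSeq (GRCh38.p14; 250 bases before to 50 after a transcription start) were matched for 25 of the 37 genes, with 38 windows. No window was matched for CACNA1H, CACNG2, CACNG7, SCN4A, CACNG8, CACNG1, CACNA1G, SCN3B, CACNG5, CACNG4, CACNA2D4 and SCN3A. The 250 bases before the start are printed for 4 genes that were higher in KO at day 7, 3 of them also higher in HET, and come from the 12 windows whose upstream bases hold no exon in GENCODE 29. SCN2A and CACNA2D2 have a second window each, which is not printed. That of CACNA2D2 also holds no exon upstream, has none of the motifs described below and is 78.8% G or C before the start. SCN11A, also higher in KO at day 7, has a window without upstream exon that is not printed either. The printed stretches of SCN2A and CACNA1C precede internal starts. They lie inside the spans that GENCODE 29 gives these genes (165194993 to 165392310 on chromosome 2 and 1970786 to 2697950 on chromosome 12), not in front of them. The printed stretches span chr2:165240810-165241059 on the plus strand for SCN2A, chr12:2052737-2052986 on the plus strand for CACNA1C, chr7:82443957-82444206 on the minus strand for CACNA2D1 and chr3:50504245-50504494 on the minus strand for CACNA2D2. Each is written 5′ to 3′ along its gene, with capitals on matches to the 3 motifs described after them.
SCN2A: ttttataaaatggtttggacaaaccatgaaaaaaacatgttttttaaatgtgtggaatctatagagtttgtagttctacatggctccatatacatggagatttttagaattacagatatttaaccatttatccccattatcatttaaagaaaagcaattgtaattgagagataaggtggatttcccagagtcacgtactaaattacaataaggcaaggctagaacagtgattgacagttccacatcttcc
CACNA1C: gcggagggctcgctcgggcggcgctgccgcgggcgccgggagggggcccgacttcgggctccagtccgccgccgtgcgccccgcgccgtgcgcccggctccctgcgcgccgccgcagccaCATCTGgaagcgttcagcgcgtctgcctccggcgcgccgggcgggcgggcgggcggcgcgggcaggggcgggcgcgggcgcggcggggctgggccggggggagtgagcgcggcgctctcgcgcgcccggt
CACNA2D1: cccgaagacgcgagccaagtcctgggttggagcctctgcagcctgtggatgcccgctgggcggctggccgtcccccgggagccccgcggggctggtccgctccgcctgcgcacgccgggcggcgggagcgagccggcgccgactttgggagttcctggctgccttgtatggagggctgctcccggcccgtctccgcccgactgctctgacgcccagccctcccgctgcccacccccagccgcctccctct
CACNA2D2: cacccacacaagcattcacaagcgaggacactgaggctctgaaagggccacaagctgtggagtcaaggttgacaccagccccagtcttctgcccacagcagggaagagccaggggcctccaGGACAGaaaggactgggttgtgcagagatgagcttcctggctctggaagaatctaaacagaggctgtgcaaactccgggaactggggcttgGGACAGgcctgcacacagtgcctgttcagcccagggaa
These 4 stretches differ in base composition: 32.0% of the SCN2A bases are G or C, 58.0% in CACNA2D2, 75.6% in CACNA2D1 and 85.6% in CACNA1C. The motifs, searched on both strands of all 38 windows, were TTCAGCACC and GGACAG, the left and right core of the RE1 element bound by the repressor REST, and CAGATG, an E-box of the kind that proneural factors such as NGN2 bind. None of the 3 contains another. TTCAGCACC was found in 1 of the 38 windows (CACNG3, which also has GGACAG on the opposite strand) and in 0.376% of the 35116 windows of all genes. GGACAG was found in 10 windows of 8 channel genes and in 20.5% of all windows, and CAGATG in 8 windows of 6 channel genes and in 14.7% of all windows. In the printed stretches GGACAG occurs in CACNA2D2 and CAGATG, as its reverse complement, in CACNA1C. A match describes letters in a window and no binding was measured.

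In WT cells most channel genes rose late. Between days 3 and 7, 25 of the 36 genes tested rose and 3 fell, where 46.2% of all genes were called (23.3% higher, 22.9% lower), and the median log2 change of the 36 was 1.58 against 0.01 over all genes. Between days 0 and 3 the directions were mixed, with 11 of 36 higher and 9 lower where 60.0% of all genes were called (31.2% higher, 28.7% lower). Several sodium pore genes fell before they rose. Of 7 tested, 4 fell from day 0 to day 3 (SCN2A by 4.52 on the log2 scale, SCN1A by 3.10, SCN9A by 1.90 and SCN11A by 1.27) and SCN8A rose by 0.80. From day 3 to day 7, 6 of the 7 rose: SCN3A by 3.74, SCN2A by 3.69, SCN9A by 3.41, SCN1A by 2.44, SCN11A by 1.39 and SCN8A by 0.82. In CPM, SCN2A went from 2.67 ± 0.265 at day 0 to 0.117 ± 0.0693 at day 3 and 1.50 ± 0.836 at day 7 (mean ± SD, n = 4). SCN8A went from 36.2 ± 1.80 to 63.4 ± 8.01 and 112 ± 7.72 CPM. On limma's log2 scale of the deposited TPM the day 3 balance of channel genes was 6 higher and 14 lower with a pseudocount of 1 (8.58% and 50.2% of all genes), and 8 higher and 10 lower once TPM was rescaled to the protein-coding genes (18.4% and 27.1%). Small structural RNAs held 47.9% to 86.5% of the deposited TPM.

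CACNG5 and CACNG6, of the gamma family, were highest at day 3 in WT. They rose by 6.31 and 3.74 on the log2 scale to day 3 and then fell by 0.72 and 2.17 to day 7. CACNG5 was at 1.20 ± 0.353, 95.4 ± 17.7 and 57.7 ± 21.1 CPM on the 3 days, and CACNG6 at 0.887 ± 0.275, 11.8 ± 2.15 and 2.67 ± 3.16. CACNG2, or stargazin, a partner of AMPA receptors, had 1 count in the 4 WT libraries of day 0 together and was at 4.99 ± 2.42 CPM at day 3 and 15.6 ± 4.67 at day 7. CACNG3, its relative, had 0 counts at day 0, at most 2 per library at day 3 and 66 to 151 at day 7. The T-type pore gene CACNA1G was at 4.42 ± 1.95 CPM at day 0 and 2.70 ± 1.27 at day 3, and fell by 2.55 on the log2 scale from there to 0.453 ± 0.165 CPM at day 7.

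Levels can be compared between genes only per length, so the deposited TPM was used, rescaled to the sum of protein-coding genes in each library. On that scale the highest WT levels at day 0 were those of CACNG7 (29.6 ± 4.16, SD, n = 4), CACNB3 (18.9 ± 3.55) and CACNA1A (15.3 ± 2.53), where CACNG7 was clear of the rest and the last 2 overlapped between libraries. At day 3 they were CACNA1H (38.1 ± 10.5), CACNG5 (21.5 ± 4.96) and CACNG7 (19.6 ± 3.34), each overlapping the next. At day 7 they were CACNA2D1 (116 ± 41.3), CACNB3 (81.6 ± 22.5) and CACNA1A (78.0 ± 26.4), again overlapping. In KO at day 7 CACNA2D1 stood clear of the rest at 347 ± 24.5, followed by CACNG7 (116 ± 19.0) and CACNB3 (116 ± 9.39). SCN10A was at or near 0 in every group but KO at day 7.

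At day 0 no channel gene was called between genotypes in edgeR's quasi-likelihood test. None of the 32 tested passed in KO against WT, where 2.08% of all genes did (1.66% higher, 0.416% lower). None passed in HET against WT, where 1.63% did (1.22% higher, 0.411% lower), or in KO against HET, where 0.856% did (0.524% higher, 0.333% lower). At an unadjusted p under 0.05 there were 8, 6 and 2, which cannot be judged here because the share of all genes at that cutoff is not given. DESeq2 called 2 in KO (3.33% of all genes), 2 in HET (2.65%) and 0 between KO and HET. Blocking on the replicate number, which paired KO and WT libraries at this day, called 3 of 32 in KO (4.7% of all genes): CACNA1G by 0.92 on the log2 scale (adjusted p = 0.0351), SCN4B by 1.16 (0.0322) and CACNB4 by 0.63 (0.0449), all higher. The 5 genes below the expression filter at day 0 were CACNA1F, CACNG1, CACNG2, CACNG3 and SCN10A.

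At days 3 and 7 channel genes were mostly higher in the mutants. In KO, 17 of 33 tested genes rose and none fell at day 3, where 21.6% of all genes were called (12.6% higher, 8.93% lower), with a median log2 difference of 0.92 over the 33 against -0.05 over all genes. At day 7, 17 of 35 rose and 5 fell (32.6% of all genes called, 17.0% higher and 15.6% lower; medians 0.78 and -0.04). In HET, 4 of 33 rose and none fell at day 3 (3.28% of all genes, 2.52% higher and 0.761% lower; medians 0.39 and 0.02). At day 7, 12 of 35 rose and none fell (14.4%, 8.31% higher and 6.1% lower; medians 0.47 and 0.00). Blocking on the replicate number, which paired HET and WT at day 3, called 10 higher and none lower there (8.79% of all genes). The 4 called without the block were CACNA1B, CACNA1E, CACNA1G and CACNA2D1, and the block added SCN3A, SCN4A, SCN8A, SCN3B, CACNG2 and CACNG4. Values of HET at day 3 below come from the fit without the block unless it is named.

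**Figure D1:**
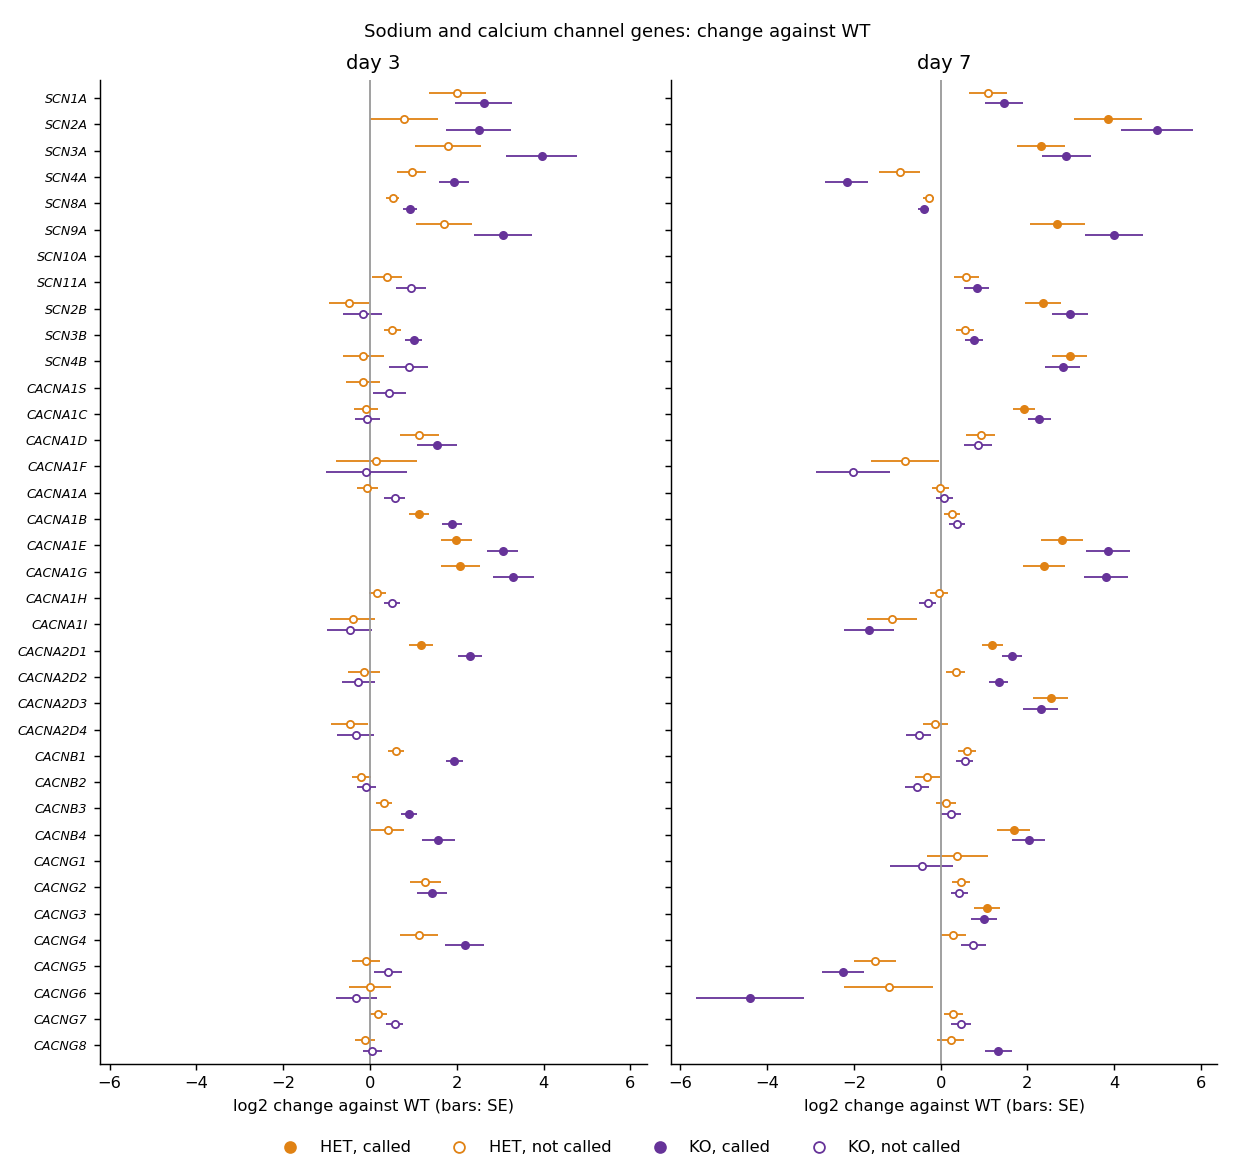
Log2 difference from WT for each channel gene (rows, ordered by role) in HET and KO at days 3 and 7; points are edgeR estimates, bars their standard errors, and filled points passed an adjusted p under 0.05. In KO at day 7 values run from -4.39 for CACNG6 to 4.99 for SCN2A, and all 12 filled HET points at day 7 lie above 0.

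The counts depended on the scale and on single libraries on both days. At day 3, limma's log2 scale of the deposited TPM with a pseudocount of 1 called 5 genes in KO, all higher (3.19% of all genes, 2.78% higher), and none in HET (0.166%), and TPM rescaled to protein-coding genes called 18 higher in KO (13.5%, 10.4% higher) and 1 in HET (1.37%). Without HET replicate 4 of day 3, 7 genes were called in HET (6.43% of all genes), and without WT replicate 3 (1.88%), WT replicate 4 (2.08%), HET replicate 2 (1.88%) or HET replicate 3 (1.74%) there was 1. At day 7 that scale with a pseudocount of 1 put the median difference of all genes at 0.14 in KO and 0.39 in HET. There 4 genes were higher and none lower in KO (3.82% of all genes called), and none was called in HET (1.12%). With TPM rescaled to protein-coding genes there were 19 higher and 2 lower in KO (20.8% of all genes) and 14 higher in HET (9.01%). Without HET replicate 1 of day 7, 22 genes were called in HET (16 higher, 6 lower; 34.6% of all genes). Without WT replicate 1 of day 7, 19 were called in KO (15 higher, 4 lower; 25.7% of all genes).

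Among sodium pore subunits, 6 of 7 tested rose in KO at day 3 and none fell, and at day 7, 5 rose and 2 fell. HET had none called at day 3 (3 with the replicate block) and 3 higher at day 7. Over all genes, 12.6% rose and 8.93% fell in KO at day 3, and 17.0% and 15.6% at day 7. In HET, 3.28% of all genes were called at day 3 (8.79% with the block) and 8.31% rose at day 7. SCN2A, a channel of the early axon initial segment in excitatory neurons, had the largest log2 difference of the channel genes in both mutants at day 7. At day 7 SCN2A was at 0.364, 2.37, 1.69 and 1.57 CPM in WT, 2.64, 32.1, 45.6 and 7.07 in HET and 60.4, 50.3, 57.5 and 24.4 in KO. Every HET library lay above every WT library, and KO replicates 1 to 3 lay above all of HET. The log2 difference of SCN2A was 4.99 (SE 0.82, adjusted p = 0.000753) in KO and 3.85 (SE 0.78, adjusted p = 0.00666) in HET. With each library's share of structural RNA added as a covariate these became 3.77 (adjusted p = 3.76e-05) and 1.93 (adjusted p = 0.00815). Without HET replicate 3 the HET value of SCN2A was 3.20 (adjusted p = 0.0205). At day 3 all SCN2A values were near or below 1 CPM: 0.0368, 0.202, 0.0957 and 0.131 in WT, 0.0985, 0.374, 0.289 and 0 in HET and 1.10, 0.803, 0.587 and 0.198 in KO, with 1 KO library inside the WT range and a log2 difference of 2.51 (SE 0.75, adjusted p = 0.0299).

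SCN3A, the pore subunit prominent in fetal cortex, shares its locus with SCN2A. The genes lie on opposite strands of chromosome 2 (SCN2A 165194993 to 165392310, SCN3A 165087522 to 165204067, GRCh38) and overlap each other, so reads in the overlap could be credited to either. At day 3 SCN3A was at 1.20, 3.42, 1.82 and 0.736 CPM in WT, 3.35, 9.42, 11.5 and 0.639 in HET and 47.0, 33.8, 26.8 and 5.34 in KO. KO did not overlap WT and HET did. At day 7 SCN3A was at 5.39, 33.6, 25.0 and 31.3 CPM in WT, 28.0, 159.8, 182 and 104 in HET and 212, 187, 169 and 142 in KO. Replicate 1 was the lowest library of both WT and HET, and that HET library fell within the WT range. The log2 difference was 3.95 (SE 0.82, adjusted p = 0.00378) in KO at day 3, 2.89 (SE 0.57, adjusted p = 0.0021) in KO at day 7 and 2.31 (SE 0.55, adjusted p = 0.0148) in HET at day 7. With the structural RNA covariate these were 3.28 (adjusted p = 0.00285), 2.12 (adjusted p = 0.000864) and 1.20 (adjusted p = 0.04). Without HET replicate 1 the HET value was 2.61 (adjusted p = 0.00108).

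SCN9A, a pore subunit known from pain-sensing neurons, followed a like course. At day 3 SCN9A was at 0.129, 1.03, 1.17 and 0.631 CPM in WT, 1.58, 4.18, 3.18 and 0.571 in HET and 7.81, 9.44, 5.23 and 2.72 in KO. At day 7 SCN9A was at 1.39, 8.29, 8.18 and 13.3 CPM in WT, 8.78, 76.3, 73.7 and 43.6 in HET and 133, 142, 130.2 and 94.0 in KO. KO lay above WT on both days and above HET at day 7 only, and HET replicate 1 of day 7 was inside the WT range. SCN9A differed in KO by 3.07 (SE 0.66, adjusted p = 0.00518) on the log2 scale at day 3 and 4.00 (SE 0.67, adjusted p = 0.000798) at day 7, and in HET by 2.69 (SE 0.63, adjusted p = 0.0132) at day 7. With the structural RNA covariate the day 7 values were 3.06 (adjusted p = 0.000207) and 1.34 (adjusted p = 0.0473).

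SCN1A, the pore subunit of fast-spiking inhibitory neurons, was low throughout. At day 3 SCN1A was at 0.111, 0.315, 0.191 and 0.184 CPM in WT, 0.739, 1.07, 1.34 and 0.0336 in HET and 1.32, 1.71, 1.17 and 0.815 in KO, and KO did not overlap WT. The KO difference was 2.62 (SE 0.65, adjusted p = 0.0114), and this SCN1A call was lost on limma's log2 scale of rescaled TPM. At day 7 it was at 0.515, 1.83, 0.948 and 1.04 CPM in WT, 0.933, 2.99, 3.04 and 2.45 in HET and 1.80, 3.33, 4.14 and 2.80 in KO, with the lowest KO library just inside the WT range. The KO difference of SCN1A at day 7 was 1.47 (SE 0.44, adjusted p = 0.0218). This call was lost with the structural RNA covariate (adjusted p = 0.0534) and without WT replicate 1 or 3 or KO replicate 2 or 3 (0.0516 to 0.0674).

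SCN11A, a sensory neuron pore, was at 1.51, 2.49, 2.22 and 3.44 CPM in WT, 2.33, 4.23, 4.51 and 3.66 in HET and 3.49, 4.75, 4.96 and 4.00 in KO at day 7. All 4 KO libraries lay above WT by a small margin. The log2 difference in KO was 0.83 (SE 0.29, adjusted p = 0.0407), and the call was lost without WT replicate 1, 2 or 3 or KO replicate 1, 2, 3 or 4 (adjusted p = 0.0564 to 0.105), without the low-count filter, under library-size scaling and with the structural RNA covariate (0.146). SCN10A, its sensory relative, did not pass the low-count filter on any day. Raw SCN10A counts at day 7 were 0, 0, 0 and 1 in WT, 0, 0, 1 and 0 in HET and 18, 16, 38 and 5 in KO. Without the filter its KO difference passed in edgeR (adjusted p = 0.000205) and in DESeq2 it passed as well (3.65e-05), but no fold is given because WT was at the floor of counting. Of 4 peripheral or sensory neuron markers, POU4F1 rose and RUNX1 fell in KO at day 7. Their sum was 88.0 to 225 CPM in WT, 139 to 782 in HET and 315 to 794 in KO, none was at 0, and their part in the SCN9A, SCN10A and SCN11A values was not tested.

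SCN8A, the main pore of mature axon initial segments and nodes, and SCN4A, the skeletal muscle pore, were higher in KO at day 3 and lower at day 7. At day 3 SCN8A was at 75.1, 57.9, 58.5 and 62.0 CPM in WT, 89.8, 94.1, 92.1 and 84.8 in HET and 146, 136, 100.2 and 104 in KO, with no overlap of WT and either mutant. At day 7 SCN8A was at 108, 119, 119 and 104 CPM in WT, 110.2, 86.9, 87.9 and 87.4 in HET and 88.2, 76.4, 89.5 and 88.7 in KO, where the KO libraries all lay below WT. The KO difference was 0.92 (SE 0.16, adjusted p = 0.001) at day 3 and -0.39 (SE 0.13, adjusted p = 0.0342) at day 7. The change of that difference between the days was -1.33 (SE 0.18, adjusted p = 1.82e-06) in a test over all 36 libraries. The call at day 7 was lost without WT replicate 2 or 3 or KO replicate 1, 2, 3 or 4 (adjusted p = 0.0561 to 0.116), with the replicate block (0.058), under library-size scaling, without the low-count filter and with the structural RNA covariate (0.0851). On limma's log2 scale of the deposited TPM its direction turned, to 0.00496 with a pseudocount of 1. With TPM rescaled to protein-coding genes the direction held and the call was lost.

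SCN4A at day 3 was at 4.18, 6.10, 8.28 and 10.1 CPM in WT, 11.4, 12.5, 11.4 and 19.8 in HET and 19.2, 22.3, 21.8 and 47.9 in KO. At day 7 SCN4A was at 8.63, 5.94, 6.02 and 7.30 CPM in WT, 7.64, 1.52, 1.18 and 4.30 in HET and 1.41, 1.32, 1.32 and 2.17 in KO. KO was thus above WT in every library at day 3 and below it in every library at day 7. The differences were 1.94 (SE 0.35, adjusted p = 0.00145) and -2.16 (SE 0.49, adjusted p = 0.00531) on the log2 scale, and their change was -4.12 (SE 0.60, adjusted p = 6.29e-06). With the structural RNA covariate the day 7 value was -1.47 (adjusted p = 0.00242). Of 7 skeletal muscle markers 6 were tested. All 6 fell in KO at day 7, where 15.6% of all genes fell, and none was called in HET, where 14.4% were. Their sum was 47.3 to 70.9 CPM in WT, 33.4 to 50.2 in HET and 21.2 to 37.7 in KO, none was at 0, and their part in the SCN4A fall was not tested.

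**Figure D2:**
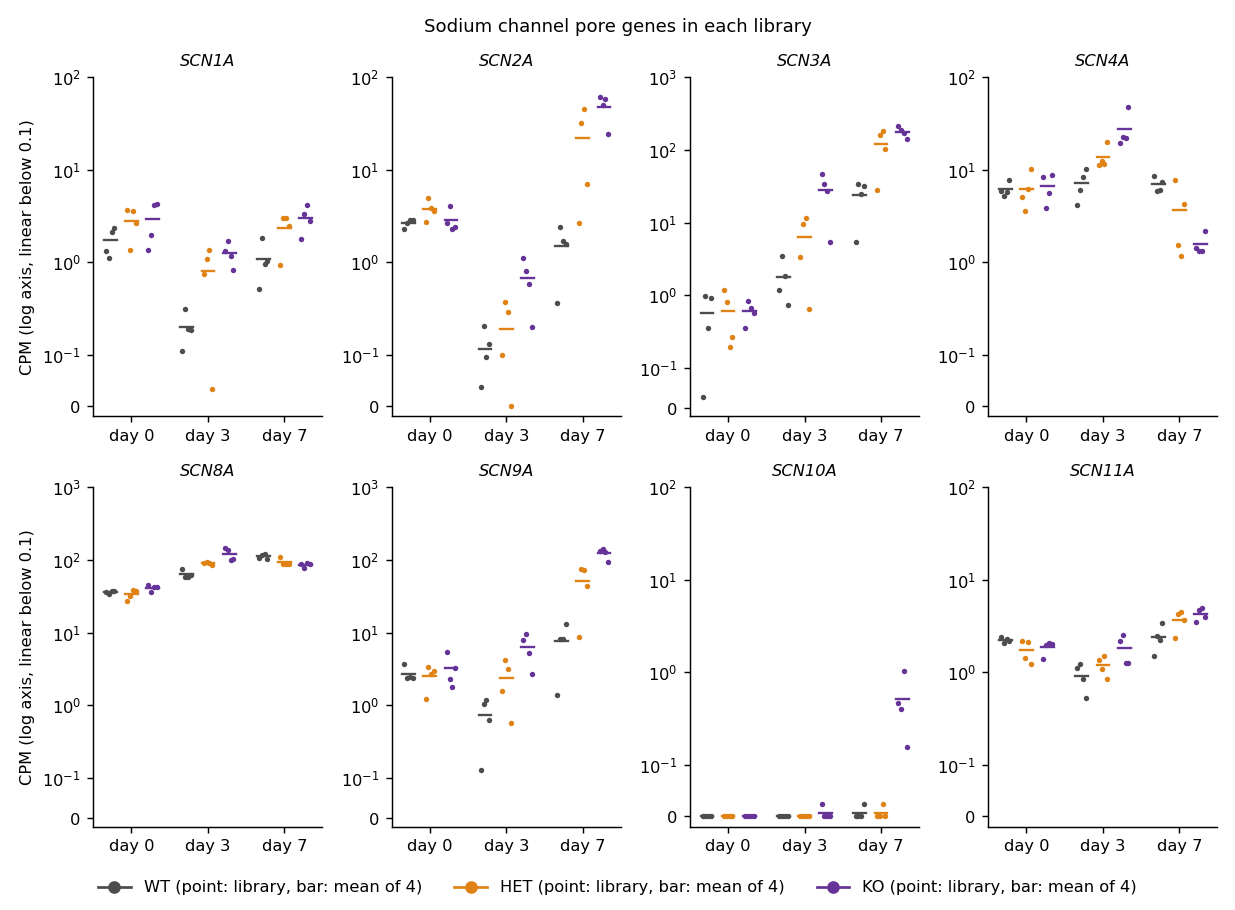
CPM of the sodium pore genes in every library by day (log axis, linear below 0.1 CPM), 1 point per library, coloured by genotype, with bars at the means of 4 libraries. At day 7 the means of SCN2A, SCN3A and SCN9A are lowest in WT and highest in KO, with HET between them, while SCN8A lies between 76.4 and 119 CPM in all libraries.

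The leading pore gene differed between genotypes at day 7. On the rescaled TPM scale the summed level of the 8 sodium pore genes at day 7 was 49.7 ± 7.76 in WT (41.5 to 60.1 over libraries), 104 ± 43.2 in HET (51.4 to 144) and 143 ± 13.4 in KO (127 to 155). SCN8A held 67.5 ± 9.87% of that sum in WT, 35.5 ± 16.5% in HET and 18.8 ± 4.16% in KO. KO libraries (15.4 to 24.9%) did not overlap WT (58.5 to 81.4%). SCN3A held 13.4 ± 6.97% in WT, 36.6 ± 13.6% in HET and 41.0 ± 2.15% in KO, where it led the sodium pore genes. It also led in HET replicates 2, 3 and 4 (43.7%, 46.2% and 40.0%, against 26.3%, 22.3% and 34.1% for SCN8A). In HET replicate 1, the library with 27.5% structural RNA, SCN8A led with 59.1% and SCN3A held 16.5%. SCN9A held 5.87 ± 2.64%, 16.0 ± 4.47% and 27.7 ± 1.78%, and SCN2A 0.686 ± 0.382%, 5.05 ± 3.73% and 8.95 ± 2.53%. SCN4A held 8.42 ± 1.47% in WT and 0.650 ± 0.347% in KO. At day 0 SCN8A held 53.8 ± 2.21% in WT and 55.8 ± 4.82% in KO, and at day 3 74.5 ± 7.93% in WT, 70.2 ± 3.20% in HET and 55.3 ± 4.34% in KO. These shares are descriptions and carry no test.

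**Figure D3:**
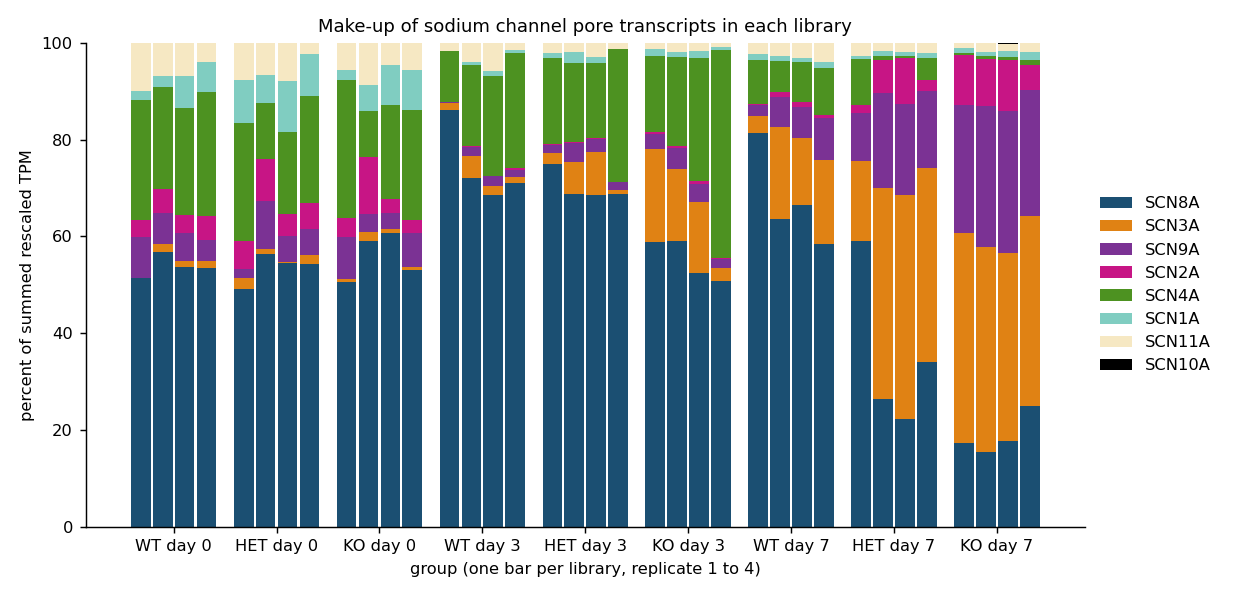
Share of the summed sodium pore level (rescaled TPM) held by each pore gene in every library, as bars stacked to 100%, grouped by genotype and day. At day 7 SCN8A holds 58.5% to 81.4% of the sum in WT libraries and 15.4% to 24.9% in KO libraries, where SCN3A and SCN9A take most of the rest.

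The sodium beta subunits SCN2B, SCN3B and SCN4B, which modulate gating and act as adhesion proteins, all rose in KO at day 7. In HET 2 of the 3 rose. Over all genes 17.0% rose in KO and 8.31% in HET at that day. At day 7 SCN2B was at 0.364, 0.760, 0.415 and 0.577 CPM in WT, 2.25, 2.66, 4.70 and 1.37 in HET and 4.78, 3.65, 5.78 and 2.68 in KO, with both mutants clear of WT. Its differences were 2.98 (SE 0.41, adjusted p = 0.000274) in KO and 2.36 (SE 0.41, adjusted p = 0.003) in HET. At day 7 SCN4B was at 0.182, 0.380, 0.267 and 0.623 CPM in WT, 1.43, 3.50, 3.36 and 3.49 in HET and 2.23, 3.08, 2.22 and 2.90 in KO, again without overlap of WT and either mutant. The differences of SCN4B were 2.81 (SE 0.40, adjusted p = 0.000318) in KO and 2.98 (SE 0.40, adjusted p = 0.000764) in HET. Neither SCN2B nor SCN4B was called at day 3, and the KO difference of SCN2B changed between the days by 3.12 (SE 0.60, adjusted p = 0.000275).

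SCN3B, which held 99.0 ± 0.406% of the summed level of these 3 genes (rescaled TPM) in WT and 96.4 ± 0.242% in KO at day 7, was at 65.2, 71.8, 54.0 and 45.7 CPM in WT, 82.3, 94.9, 95.4 and 63.0 in HET and 137, 137, 115 and 93.0 in KO at day 3. At day 7 SCN3B was at 91.1, 153, 157 and 151 CPM in WT, 149, 222, 255 and 189.8 in HET and 225, 253, 259 and 207 in KO. KO lay above WT on both days, by 1.01 (SE 0.19, adjusted p = 0.00216) and 0.78 (SE 0.20, adjusted p = 0.0117) on the log2 scale.

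Calcium pore subunits moved in some channel types and not in others. In KO, 4 of 10 tested rose at day 3 and none fell, and at day 7, 3 of 9 rose and 1 fell. HET had 3 of 10 higher at day 3 and 3 of 9 at day 7. Over all genes, 12.6% rose in KO at day 3 and 17.0% at day 7, where 15.6% fell. In HET, 2.52% and 8.31% of all genes rose on these days. The calcium pore rises at day 7 were those of 1 L-type, the R-type and 1 T-type gene. The P/Q-type gene CACNA1A, which drives release at central synapses, was not called in any comparison with WT. At day 7 CACNA1A was at 56.8, 120.2, 88.3 and 111 CPM in WT, 82.4, 103, 94.1 and 96.2 in HET and 104, 89.9, 107 and 99.7 in KO, and the groups overlapped. It held 43.6 ± 3.53% of the summed calcium pore level (rescaled TPM) in WT, 36.8 ± 5.13% in HET and 35.9 ± 3.74% in KO.

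CACNA1E encodes the R-type pore, found in dendrites and terminals. At day 3 CACNA1E was at 0.405, 0.450, 0.502 and 0.920 CPM in WT, 2.98, 2.34, 2.28 and 1.31 in HET and 6.49, 5.45, 3.80 and 3.39 in KO. At day 7 CACNA1E was at 3.94, 11.4, 13.4 and 6.65 CPM in WT, 33.2, 75.0, 115 and 23.4 in HET and 131, 135, 156 and 92.5 in KO. Both mutants were clear of WT on both days, and KO was clear of HET at day 3 but not at day 7. CACNA1E differed in KO by 3.06 (SE 0.36, adjusted p = 7.87e-05) at day 3 and 3.86 (SE 0.51, adjusted p = 0.000197) at day 7. In HET it differed by 1.99 (SE 0.35, adjusted p = 0.00599) and 2.80 (SE 0.49, adjusted p = 0.00309), and the second value was 2.11 (adjusted p = 0.00638) with the structural RNA covariate. The HET call at day 3 was lost on limma's log2 scale of TPM, both deposited and rescaled. At day 7 CACNA1E held 1.41 ± 0.776% of the summed calcium pore level (rescaled TPM) in WT, 8.09 ± 5.48% in HET and 16.0 ± 3.05% in KO, where the sums were 177 ± 48.0, 229 ± 38.9 and 230.3 ± 20.7.

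CACNA1G, a T-type pore that supports low-threshold firing, rose in both mutants on both days. At day 3 CACNA1G was at 0.995, 4.07, 2.97 and 2.76 CPM in WT, 8.13, 14.2, 15.8 and 7.03 in HET and 11.8, 46.8, 27.2 and 22.2 in KO. At day 7 it was at 0.333, 0.689, 0.444 and 0.346 CPM in WT, 2.59, 2.23, 4.12 and 0.603 in HET and 6.37, 5.27, 9.54 and 4.66 in KO, with HET replicate 4 inside the WT range. Its differences were 3.30 (SE 0.47, adjusted p = 0.000317) and 3.82 (SE 0.51, adjusted p = 0.0002) in KO, and 2.08 (SE 0.45, adjusted p = 0.0228) and 2.38 (SE 0.49, adjusted p = 0.00675) in HET. The HET call at day 3 was lost without WT replicate 1, 3 or 4 or HET replicate 2 or 3 (adjusted p = 0.0557 to 0.0768). Neither of the other T-type genes was called higher. CACNA1H, the most abundant, was at 164 to 296 CPM in WT, 196 to 303 in HET and 162 to 210.2 in KO at day 7 and was never called against WT. CACNA1I was at 3.36, 5.94, 8.00 and 3.12 CPM in WT, 5.88, 1.55, 1.42 and 0.522 in HET and 1.80, 1.42, 2.14 and 1.16 in KO at day 7, where it fell in KO by 1.64 (SE 0.58, adjusted p = 0.0436). That call was lost without WT replicate 2 or 3 or KO replicate 1, 2, 3 or 4 (adjusted p = 0.068 to 0.121) and with the structural RNA covariate (0.133). It was also lost on limma's log2 scale of rescaled TPM.

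CACNA1C, the L-type pore of heart and brain that couples activity to gene expression, rose at day 7 and not at day 3. At day 3 CACNA1C was at 3.60 to 5.13 CPM in WT, 2.64 to 5.48 in HET and 3.26 to 5.41 in KO. At day 7 CACNA1C was at 4.09, 7.69, 7.23 and 5.63 CPM in WT, 17.2, 29.2, 30.8 and 16.9 in HET and 29.3, 31.9, 33.7 and 24.8 in KO, with both mutants clear of WT. The day 7 differences were 2.28 (SE 0.26, adjusted p = 7.42e-05) in KO and 1.93 (SE 0.26, adjusted p = 0.000651) in HET, and the KO difference changed between days 3 and 7 by 2.32 (SE 0.43, adjusted p = 0.000175). CACNA1C overlaps other annotated genes, some of them antisense. CACNA1D, an L-type pore active at lower voltages, rose in KO at day 3, when it was at 0.810, 0.877, 0.526 and 0.263 CPM in WT, 0.739, 2.04, 1.86 and 0.807 in HET and 2.80, 2.02, 1.48 and 1.04 in KO. That difference of 1.54 (SE 0.46, adjusted p = 0.0294) was lost without WT replicate 3 or 4 or KO replicate 1 or 2 (adjusted p = 0.0635 to 0.099). CACNA1S, of skeletal muscle, and CACNA1F, of the retina, were at 0.263 to 0.855 and 0.225 to 1.53 CPM in WT at day 3 and were not called in either mutant.

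CACNA1B, the N-type pore of presynaptic terminals, was higher in both mutants at day 3 and in neither at day 7. At day 3 CACNA1B was at 30.7, 30.9, 32.6 and 31.0 CPM in WT, 47.9, 89.3, 83.3 and 51.4 in HET and 133, 156, 97.7 and 82.2 in KO. All mutant libraries lay above all WT libraries. At day 7 CACNA1B was at 65.0 to 129 CPM in WT, 110.3 to 119 in HET and 104 to 138 in KO, and the ranges overlapped. The day 3 differences were 1.88 (SE 0.23, adjusted p = 0.000109) in KO and 1.13 (SE 0.23, adjusted p = 0.0151) in HET, the latter lost without WT replicate 1, 2, 3 or 4 or HET replicate 2 or 3 (adjusted p = 0.0501 to 0.0582). The KO difference of CACNA1B changed between the days by -1.52 (SE 0.36, adjusted p = 0.00231).

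**Figure D4:**
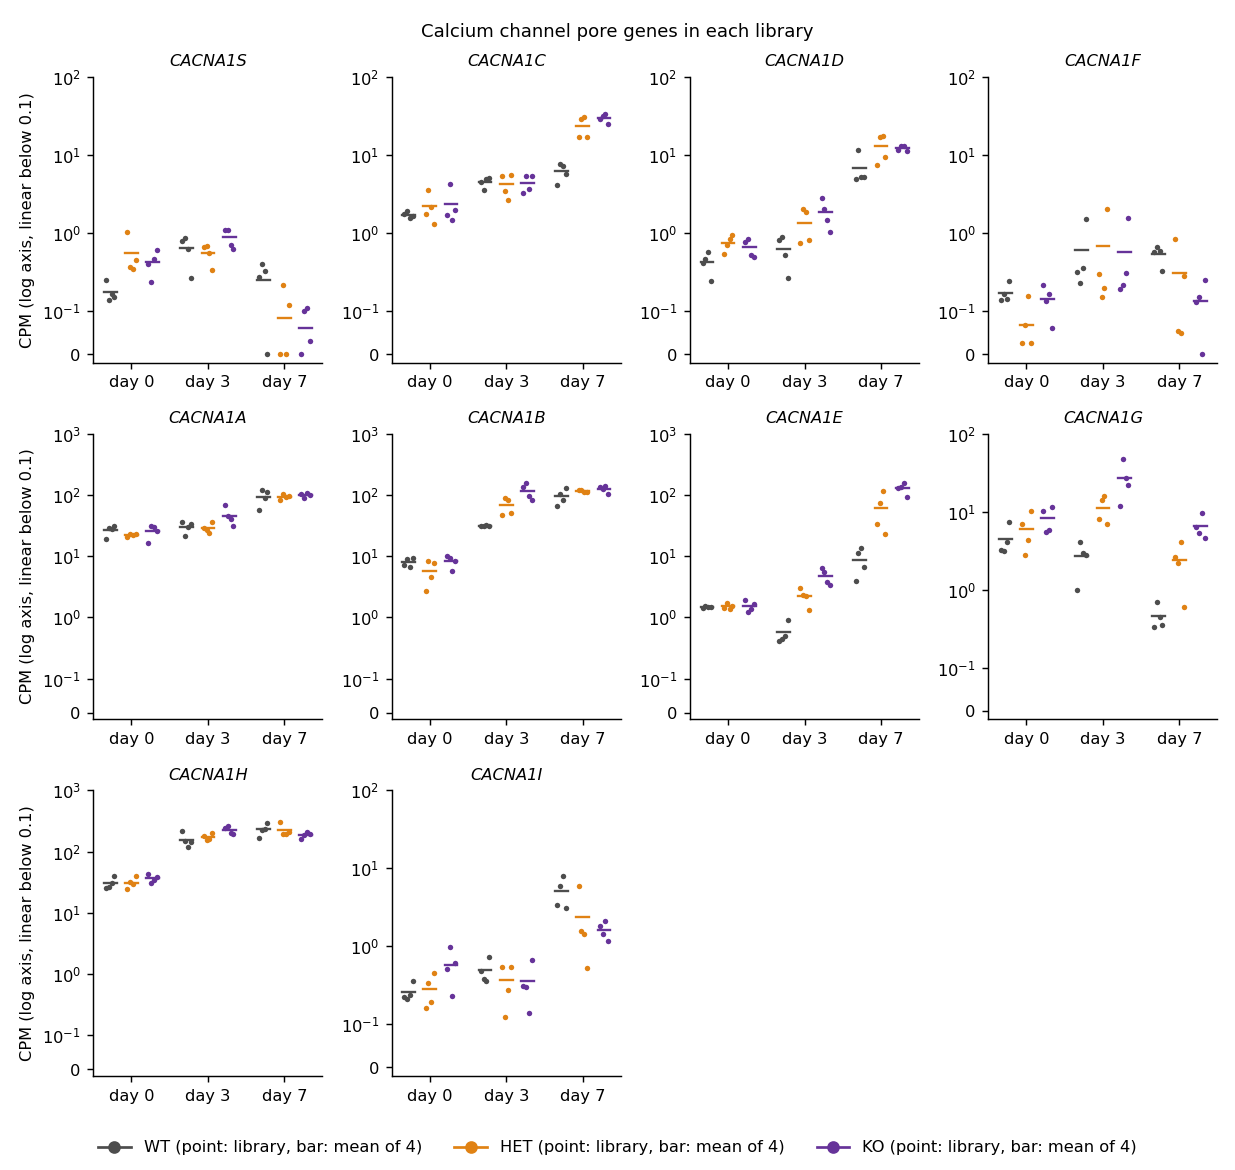
CPM of the calcium pore genes in every library by day (log axis, linear below 0.1 CPM), 1 point per library, coloured by genotype, with bars at the means of 4 libraries. CACNA1E and CACNA1C are clear of WT in both mutants at day 7, with CACNA1E at 3.94 to 13.4 CPM in WT and 92.5 to 156 in KO, while CACNA1A and CACNA1H overlap.

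Alpha-2-delta subunits carry calcium channels to the membrane, and CACNA2D1 is a target of gabapentin. It had the highest mean level per length of all channel genes at day 7 in each genotype. At day 3 CACNA2D1 was at 21.0, 19.0, 21.1 and 16.4 CPM in WT, 28.5, 51.3, 64.2 and 30.4 in HET and 139, 91.9, 86.2 and 69.2 in KO. At day 7 CACNA2D1 was at 145, 223, 215 and 204 CPM in WT, 267, 533, 556 and 457 in HET and 740.0, 621, 580.4 and 521 in KO. The 3 genotypes did not overlap at day 3, and both mutants were clear of WT at day 7. CACNA2D1 differed by 2.30 (SE 0.28, adjusted p = 8.94e-05) and 1.64 (SE 0.23, adjusted p = 0.000315) in KO at days 3 and 7, and by 1.18 (SE 0.27, adjusted p = 0.0287) and 1.20 (SE 0.23, adjusted p = 0.00518) in HET. The HET call at day 3 was lost without WT replicate 1, 2, 3 or 4 or HET replicate 2 or 3 (adjusted p = 0.0748 to 0.107). On the rescaled TPM scale the 4 alpha-2-delta genes summed to 125 ± 43.6 in WT, 258 ± 91.9 in HET and 376 ± 28.2 in KO at day 7, and CACNA2D1 held 92.4 ± 1.27%, 92.7 ± 0.646% and 92.3 ± 0.870% of it.

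CACNA2D2, the alpha-2-delta subunit of cerebellar neurons, was called in KO and not in HET. At day 7 CACNA2D2 was at 18.2, 21.4, 19.7 and 14.0 CPM in WT, 20.9, 27.0, 28.8 and 17.2 in HET and 49.4, 46.4, 57.5 and 31.9 in KO. KO was clear of both other groups, by 1.34 (SE 0.22, adjusted p = 0.000721) against WT and 0.99 (SE 0.22, adjusted p = 0.0409) against HET. CACNA2D3 rose in both. At day 7 CACNA2D3 was at 0.485, 1.16, 2.22 and 1.13 CPM in WT, 3.78, 9.85, 7.50 and 7.99 in HET and 4.42, 6.93, 6.47 and 6.86 in KO, without overlap of WT and either mutant. Its differences were 2.31 (SE 0.40, adjusted p = 0.00107) in KO and 2.54 (SE 0.41, adjusted p = 0.00195) in HET. The CACNA2D3 span contains ESRG, a transcript of stem cells on the opposite strand, so its count is uncertain. CACNA2D4 was not called and was at 0.636 to 0.736 CPM in WT and 0.348 to 0.630 in KO at day 7.

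Beta subunits bind the pore from inside the cell and release it from the endoplasmic reticulum. In KO, CACNB1, CACNB3 and CACNB4 rose at day 3 and CACNB4 at day 7, while CACNB4 at day 7 was the only beta call in HET. These were 3 of 4 genes in KO at day 3 and 1 of 4 in each mutant at day 7. Over all genes 12.6% rose in KO at day 3, and 17.0% in KO and 8.31% in HET at day 7. At day 3 CACNB1 was at 6.54, 6.05, 7.32 and 7.55 CPM in WT, 9.34, 9.71, 12.8 and 9.08 in HET and 34.9, 26.3, 22.8 and 22.8 in KO, and the 3 groups did not overlap. The difference from WT was 1.94 (SE 0.19, adjusted p = 2.07e-05) in KO. At day 7 CACNB1 was at 38.0 to 60.5 CPM in WT, 65.8 to 118 in HET and 70.1 to 80.6 in KO and was not called, and its KO difference changed by -1.41 (SE 0.25, adjusted p = 0.000121) between the days. At day 3 CACNB3 was at 15.3, 16.3, 14.7 and 15.6 CPM in WT, 17.6, 23.8, 22.0 and 13.7 in HET and 34.4, 31.6, 27.2 and 24.0 in KO, with a KO difference of 0.90 (SE 0.18, adjusted p = 0.0031). CACNB3 held 63.3 ± 4.27% of the summed beta level (rescaled TPM) in WT and 58.3 ± 2.96% in KO at day 7, when it was not called.

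CACNB4, which is known for its place at terminals and in the nucleus, was at 1.69, 2.27, 2.20 and 1.55 CPM in WT, 2.98, 3.44, 3.00 and 0.740 in HET and 6.58, 7.57, 5.43 and 3.81 in KO at day 3. At day 7 CACNB4 was at 3.85, 14.8, 9.84 and 7.73 CPM in WT, 13.5, 35.7, 40.8 and 27.8 in HET and 45.1, 38.0, 34.6 and 31.0 in KO, and HET replicate 1 lay inside the WT range. Its differences were 1.58 (SE 0.38, adjusted p = 0.0104) and 2.03 (SE 0.38, adjusted p = 0.00172) in KO and 1.69 (SE 0.38, adjusted p = 0.0109) in HET at day 7, the last of them 1.07 (adjusted p = 0.0201) with the structural RNA covariate. CACNB2, which is prominent in heart, was not called and was at 3.05 to 7.57 CPM in WT and 2.68 to 4.03 in KO at day 7.

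**Figure D5:**
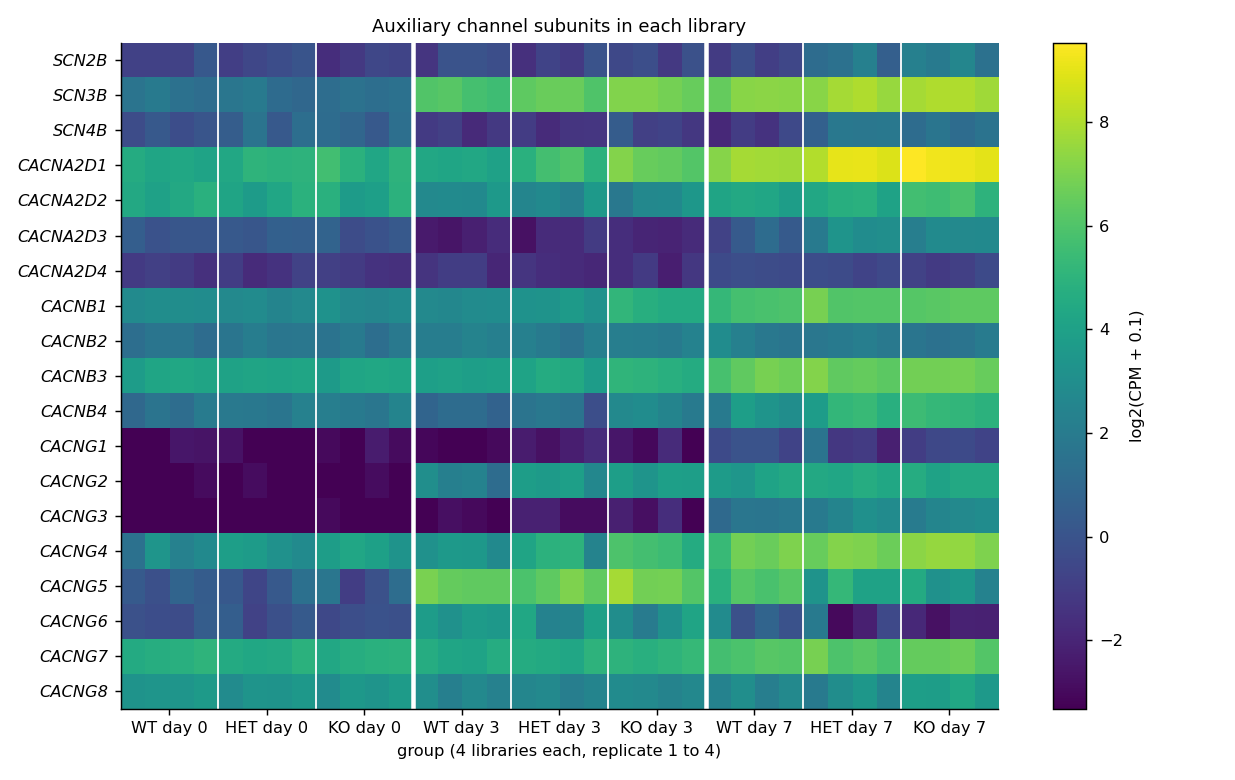
Heat map of the 19 accessory subunit genes (vertical) in every library (horizontal, 4 per group, by day and genotype), coloured by log2(CPM + 0.1). CACNA2D1 is at 521 to 740.0 CPM in KO at day 7 against 145 to 223 in WT, and CACNG5 is brighter at day 3 than at days 0 and 7 in WT.

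Called gamma genes went in both directions. CACNG2 and CACNG4 rose in KO at day 3, 2 of 6 tested, where 12.6% of all genes rose. CACNG3 and CACNG8 rose and CACNG5 and CACNG6 fell in KO at day 7. These were 2 higher and 2 lower of 8, where 17.0% of all genes rose and 15.6% fell. CACNG3 at day 7 was the only gamma call in HET without the replicate block, 1 of 8 where 8.31% of all genes rose. With so few genes these counts do not set the family apart from all genes. CACNG2, CACNG3, CACNG4 and CACNG8 are among the gamma genes that encode AMPA receptor partners. At day 3 CACNG2 was at 8.14, 4.52, 5.05 and 2.26 CPM in WT, 13.9, 12.9, 15.2 and 6.08 in HET and 14.5, 10.1, 15.4 and 14.6 in KO, where KO lay above WT by 1.43 (SE 0.35, adjusted p = 0.0112). At day 3 CACNG4 was at 8.88, 12.2, 11.5 and 6.73 CPM in WT, 18.2, 30.2, 31.8 and 5.28 in HET and 61.2, 51.0, 44.8 and 24.1 in KO, with a KO difference of 2.18 (SE 0.45, adjusted p = 0.0036). At day 7 neither was called, with CACNG2 at 10.7 to 21.4 CPM in WT and 17.1 to 24.7 in KO, and CACNG4 at 40.2 to 132 and 131 to 183.

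At day 7 CACNG8 was at 5.06, 8.00, 4.39 and 6.56 CPM in WT, 3.83, 7.84, 11.2 and 5.50 in HET and 14.5, 14.0, 19.9 and 12.1 in KO, a KO difference of 1.33 (SE 0.32, adjusted p = 0.00657). At day 7 CACNG3 was at 2.00, 3.25, 3.11 and 3.49 CPM in WT, 3.76, 5.48, 8.72 and 7.19 in HET and 3.96, 5.64, 6.50 and 7.52 in KO. Both mutants lay above WT by a narrow margin, 0.99 (SE 0.30, adjusted p = 0.0218) in KO and 1.08 (SE 0.30, adjusted p = 0.0288) in HET. CACNG3 calls were lost with the structural RNA covariate (adjusted p = 0.0777 in KO and 0.115 in HET), in KO without WT replicate 1 or KO replicate 3 or 4 (0.0562 to 0.0602) and in HET without WT replicate 1, 2 or 3 or HET replicate 3 or 4 (0.0542 to 0.105).

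CACNG5 and CACNG6, the pair that peaked at day 3 in WT, were lower in KO at day 7. At day 7 CACNG5 was at 28.1, 71.2, 57.4 and 74.3 CPM in WT, 9.53, 38.1, 17.0 and 16.9 in HET and 23.1, 8.95, 11.6 and 5.10 in KO, and it fell in KO by 2.25 (SE 0.49, adjusted p = 0.0042). At day 7 CACNG6 was at 7.36, 0.807, 1.66 and 0.831 CPM in WT, 3.86, 0.0271, 0.123 and 0.603 in HET and 0.180, 0.0497, 0.137 and 0.126 in KO. WT replicate 1, the library with the most dividing-cell marker RNA, was far above the other WT libraries. CACNG6 differed in KO by -4.39 (SE 1.25, adjusted p = 0.0173), by -3.12 (adjusted p = 0.0661) without that library, by -4.11 (adjusted p = 0.0548) without KO replicate 2 and by -2.01 (adjusted p = 0.0215) with the structural RNA covariate. The CACNG6 call was also lost on limma's log2 scale of rescaled TPM. CACNG1, a skeletal muscle subunit, and CACNG7 were not called against WT, at 0.411 to 0.631 and 69.0 to 100.3 CPM in KO at day 7. CACNG7 held 48.0 ± 7.32% of the summed gamma level (rescaled TPM) in WT and 47.5 ± 2.70% in KO.

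KO and HET were told apart at few channel genes in the fit used throughout, and at more under some other settings. CACNA2D1 (1.12, SE 0.27, adjusted p = 0.0315) and CACNB1 (1.35, SE 0.19, adjusted p = 0.00151) were higher in KO at day 3, 2 of 33 where 4.35% of all genes were called (2.77% higher, 1.58% lower). CACNA2D2 was higher in KO at day 7 as given above, 1 of 35 where 1.4% were called (0.668% higher, 0.737% lower). At days 3 and 7 the counts were 12 and 1 with the replicate block (12.7% and 1.81% of all genes), 7 and 4 in DESeq2 (8.07% and 3.27%), 6 and 5 with the structural RNA covariate (8.19% and 6.16%), and 1 and 0 under library-size scaling (3.84% and 1.28%). A call against WT in KO and not in HET is no test of a difference between the mutants.

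Whether the KO difference itself changed over time was tested on all 36 libraries. From day 0 to day 3 it changed at 11 of 36 channel genes, all upward, where 8.55% of all genes were called (5.37% upward, 3.19% downward). The largest was SCN3A, by 3.89 (SE 1.12, adjusted p = 0.0259), followed by CACNA1E, by 3.02 (SE 0.56, adjusted p = 0.000733). From day 3 to day 7 it changed at 13 of 36, 6 upward and 7 downward, where 18.5% of all genes were called (7.6% upward, 10.9% downward). The upward changes were those of SCN2B, CACNA1C, SCN4B, CACNA2D3, CACNA2D2 and CACNG8, and the downward ones those of SCN4A, CACNG6, CACNG5, CACNA1B, CACNB1, SCN8A and CACNA1H.

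Genes that work with these channels were taken from lists made by function. For comparison, 12.6% of all genes rose and 8.93% fell in KO at day 3, and 17.0% and 15.6% at day 7. In HET the shares were 2.52% and 0.761% at day 3 and 8.31% and 6.1% at day 7. The replicate block called 8.79% of all genes in HET at day 3. Of 12 sodium channel and axon initial segment partners, 8 rose and 1 fell in KO at day 3 and 9 rose at day 7. In HET 2 rose at day 3 (with the replicate block 4 rose and 2 fell) and 8 at day 7. ANK2 and NFASC, an ankyrin and an adhesion molecule of the axonal membrane, were among the 3 smallest adjusted p of the partner lists at day 3 in both mutants. ANK2 rose by 3.01 (SE 0.34, adjusted p = 5.76e-05) in KO and 2.05 (SE 0.33, adjusted p = 0.00298) in HET, and NFASC by 1.68 (SE 0.20, adjusted p = 8.94e-05) and 0.88 (SE 0.20, adjusted p = 0.027). At day 7 the smallest in KO was that of FGF14, an intracellular regulator of sodium channels, which rose by 2.17 (SE 0.26, adjusted p = 0.000111). Of 13 calcium channel partners, 6 rose in KO at day 3 and 1 in HET (3 with the replicate block). At day 7, of 12 tested, 4 rose and 3 fell in KO, and 2 rose and 1 fell in HET. RIMBP2, an active zone protein that binds calcium channels, rose by 1.58 (SE 0.19, adjusted p = 0.000112) in KO and 1.00 (SE 0.19, adjusted p = 0.00473) in HET. STAC3, a muscle L-type channel partner, differed by -5.05 (SE 0.70, adjusted p = 0.000276) in KO and STAC2, its neuronal relative, by 2.85 (SE 0.50, adjusted p = 0.00309) in HET. Each gene lay on the same side of WT in the other mutant. At day 7 STAC3 was at 0.368 to 5.26 CPM in HET against 8.41 to 20.9 in WT. STAC2 was at 3.73 to 6.69 CPM in KO against 0.508 to 1.27 in WT.

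Leak and atypical sodium channel genes were tested beside them. Of 6, 4 rose in KO and 2 in HET (3 with the replicate block) at day 3, and 6 and 4 at day 7, with none lower. Over all genes, 12.6% rose in KO and 2.52% in HET at day 3, and 17.0% and 8.31% at day 7. The block called 8.79% of all genes in HET at day 3. NALF1, an accessory protein of the sodium leak channel, had the smallest adjusted p of all partner lists at day 3 and rose by 2.02 (SE 0.23, adjusted p = 5.31e-05) in KO and 1.52 (SE 0.22, adjusted p = 0.00153) in HET.

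Another list held REST, a repressor known to bind neuronal sodium channel genes, with its corepressors RCOR1, RCOR2 and RCOR3. At day 3 REST was at 67.4, 63.0, 47.5 and 56.2 CPM in WT, 33.7, 31.6, 24.0 and 41.7 in HET and 10.7, 23.2, 11.5 and 17.7 in KO. At day 7 REST was at 18.9, 13.7, 9.93 and 8.63 CPM in WT, 3.19, 5.81, 5.29 and 4.42 in HET and 2.72, 3.78, 3.34 and 3.65 in KO. KO and HET libraries lay below WT at both days without overlap. REST differed by -1.92 (SE 0.25, adjusted p = 0.000154) in KO at day 3, -1.92 (SE 0.28, adjusted p = 0.000344) in KO at day 7 and -1.46 (SE 0.27, adjusted p = 0.00457) in HET at day 7, and the HET value at day 3, -0.82 (SE 0.24, adjusted p = 0.0966), was not called without the replicate block and was called with it (-0.84, adjusted p = 0.0153). Of the 4 genes of the list, 1 fell in KO at day 3, 3 fell in KO at day 7 (REST, RCOR1 and RCOR2) and 2 in HET at day 7 (REST and RCOR2). The shares of all genes that fell in these comparisons were 8.93%, 15.6% and 6.1%. REST protein and its binding were not measured, and its part in the channel values was not tested.

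Of the 37 genes, 36 were tested against WT on at least 1 day and 28 of these were called in at least 1 such comparison, where 41.3% of all genes so tested were. SCN10A was not tested, and the others called in none were CACNA1S, CACNA1F, CACNA1A, CACNA1H, CACNA2D4, CACNB2, CACNG1 and CACNG7. For 22 of the 37 genes another annotated gene overlaps the span, and because the use of strand in counting is not given in the sources used here, reads of such partners cannot be told apart.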

How the data were processed

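Total RNA from 36 libraries was depleted of ribosomal RNA (NEBNext) and sequenced as 151-base pairs, per the labels' protocols. The authors deposited expected counts and TPM per gene from STAR 2.7.8a and RSEM 1.3.3 on GRCh38 after cutadapt 4.8, per the submitters' processing notes; the annotation and the use of strand are not given in the sources used here. All deposited expected counts were whole numbers and were used unrounded. Totals ran from 23948079 to 56678796 counts per library, so that genes near 0.1 CPM rest on few counts.

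The members and gene lists were chosen with earlier results of these data known, and 2 channel genes and 3 marker genes of those lists are not reported here. Groups followed the labels. The 3 genotypes of a day, the 12 WT libraries for the time course, or all 36 libraries for changes of a difference between days were fitted in edgeR 4.0.16 (R 4.3.3) with TMM scaling, filterByExpr and the quasi-likelihood test, with Benjamini-Hochberg adjustment over all genes of the fit and a threshold of 0.05. The code was tested on simulated data. CPM were computed with TMM factors over all 36 libraries. Rescaled TPM is the deposited TPM scaled so that protein-coding genes sum to the same total in every library. Members called against WT were named with every library's value where the higher group had at least 1 CPM on average, and SCN2A at day 3, below that level, was named as well; up to 3 partners per comparison were named by adjusted p. GENCODE 29 gave positions (58274 identifiers matched).

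Same-numbered libraries deviated together for KO and WT at day 0 (correlations 0.137 to 0.335) and HET and WT at day 3 (0.104 to 0.614), so blocked counts stand beside those results. Alternatives were DESeq2 1.42.0 and its size factors, library size alone, no low-count filter, limma 3.58.1 on log2(TPM + 1) and log2(TPM + 0.1) and on rescaled TPM (chosen after seeing the data), the replicate block, the structural RNA share as a covariate, and each library left out. Figures used Python 3.11.15 with pandas 2.3.3 and matplotlib 3.10.9.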

Additional observations from a re-analysis of the deposited data

Results flagged for a closer look

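In 8 of 92 groups of 4 libraries with a channel gene's CPM, 1 library stood far from the other 3 by Dixon's test at the 95% level, where chance gives about 1 in 20 groups, or 4.6. SCN4A, the skeletal muscle pore, was at 47.9 CPM in replicate 4 of KO at day 3 against 19.2 to 22.3 in the others, and at 2.17 CPM in replicate 4 of KO at day 7 against 1.32 to 1.41. SCN8A was at 76.4 CPM in replicate 2 of KO at day 7 against 88.2 to 89.5. In replicate 1 of WT at day 7 SCN3B was at 91.1 CPM against 151 to 157, and CACNG6 at 7.36 CPM against 0.807 to 1.66. SCN4B was at 1.43 CPM in replicate 1 of HET at day 7 against 3.36 to 3.50. CACNA1B was at 32.6 CPM in replicate 3 of WT at day 3 against 30.7 to 31.0, and CACNG2 at 10.1 CPM in replicate 2 of KO at day 3 against 14.5 to 15.4.

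The difference of KO from WT changed between days for some channel genes, by edgeR's test of the change itself over 36 libraries. From day 0 to day 3, 11 of 36 channel genes tested changed, all upward on the log2 scale. Over all genes 8.55% were called (5.37% upward, 3.19% downward). Among sodium channel genes SCN3A changed by 3.89, SCN9A by 2.86, SCN4A by 1.84, SCN3B by 1.24 and SCN8A by 0.74. Among calcium channel genes CACNA1E changed by 3.02, CACNA1G by 2.42, CACNB1 by 2.04, CACNA1B by 1.85, CACNA2D1 by 1.64 and CACNB3 by 0.92.

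From day 3 to day 7, 13 of 36 channel genes tested changed, where 18.5% of all genes were called (7.6% upward, 10.9% downward). The KO difference moved up for SCN2B by 3.12, CACNA1C by 2.32, SCN4B by 1.91, CACNA2D3 by 1.75, CACNA2D2 by 1.58 and CACNG8 by 1.26. It moved down for SCN4A by a change of -4.12, CACNG6 by -4.09, CACNG5 by -2.67, CACNA1B by -1.52, CACNB1 by -1.41, SCN8A by -1.33 and CACNA1H by -0.82. CACNG6 at day 7 rests in part on the high WT replicate 1, without which its KO difference was -3.12 (adjusted p = 0.0661).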

How the results depend on the processing

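Of 918 alternative values for the 54 named pairs of gene and comparison, 772 kept direction and call, 144 kept the direction and lost the call, and 2 turned. Those 2 were SCN8A in KO at day 7 on limma's scale of the deposited TPM, at 0.00496 with a pseudocount of 1 and 0.00940 with 0.1. The pairs were named for their call in these same libraries, and 432 of the values only left out 1 library. A kept direction is therefore no independent support. With single libraries left out, 43 of the 54 pairs kept their call in every fit, and 9 of 54 kept it under every setting. DESeq2 and its size factors kept all 54 calls, the replicate block 53, no filter 52, library size alone 51, the structural RNA covariate 48, rescaled TPM 46, TPM with a pseudocount of 0.1 27 and with 1, 9. Rescaled TPM lost SCN1A in KO at day 3 and SCN8A, SCN11A, CACNA1I and CACNG6 in KO at day 7. It also lost CACNA1B, CACNA1E and CACNA2D1 in HET at day 3. The cause of the losses under any setting was not tested.

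Counts of channel genes called moved by over 1.5 times as follows. Most counts in this section stand without the share of all genes called in the same fit. They show how calls moved with the setting, not how channel genes compare with all genes. With limma on log2(TPM + 1) the counts were 5 in KO and 0 in HET at day 3, 4 in KO and 0 in HET at day 7, 0 and 0 for KO against HET at days 3 and 7, 17 for WT from day 3 to day 7, and 1 and 3 for changes of the KO difference from day 0 to 3 and from day 3 to 7. With limma on log2(TPM + 0.1) they were 9 in KO and 0 in HET at day 3, 11 in KO and 7 in HET at day 7, 0 and 0 for KO against HET, and 2 and 2 for the changes. On rescaled TPM they were 1 in HET at day 3 and 1 and 0 for KO against HET at days 3 and 7. DESeq2 called 2 in KO and 2 in HET at day 0, 7 in HET at day 3, and 7 and 4 for KO against HET at days 3 and 7. Library size alone called 1 and 0 for KO against HET at days 3 and 7, no filter called 2 for KO against HET at day 7, and the structural RNA covariate called 6 and 5 for KO against HET at days 3 and 7.

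The replicate block called 3 in KO and 2 in HET at day 0, 10 in HET at day 3 and 12 for KO against HET at day 3. Elsewhere the block called 21 in KO at day 3, 23 in KO and 15 in HET at day 7, 0 and 1 for KO against HET at days 0 and 7, 22 and 28 for the WT steps and 12 and 14 for the changes. Shares of all genes under the block are given only for KO at day 0, HET at day 3 and KO against HET at days 3 and 7. The block's only lost call among named pairs was SCN8A in KO at day 7 (adjusted p = 0.058). In the other comparisons at least 1 pair was below the correlation of 0.1 that the pairing rule asks. Correlations ran from 0.0866 to 0.556 for KO and HET and 0.0568 to 0.433 for KO and WT at day 3, each with 3 of 4 pairs best with their own number, and from -0.067 to 0.148 for KO and WT at day 7, with 2 of 4.

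Leaving out 1 library gave 0 to 1 calls in KO, 0 to 0 in HET and 0 to 0 for KO against HET at day 0, 15 to 20 in KO, 1 to 7 in HET and 1 to 4 for KO against HET at day 3, and 17 to 27 in KO, 11 to 22 in HET and 0 to 3 for KO against HET at day 7. It gave 19 to 21 and 26 to 29 for the WT steps, and 7 to 12 and 11 to 14 for the changes of the KO difference. HET at day 3 had 7 calls without HET replicate 4, 2 without WT replicate 1 or 2, and 1 without WT replicate 3 or 4 or HET replicate 2 or 3. HET at day 7 had 22 without HET replicate 1, where 34.6% of all genes were called, against 14.4% in the full fit. Without WT replicate 1, 25.7% of all genes were called in KO at day 7, against 32.6% in the full fit. The share of all genes thus moved with the library left out as well. KO against HET at day 3 had 4 without KO replicate 4 and 1 without KO replicate 1, 2 or 3 or HET replicate 1, 2 or 4, and at day 7 it had 0 without KO replicate 1, 2 or 3, 2 without KO replicate 4 and 3 without HET replicate 3. KO at day 0 had 1 without WT replicate 2, and the change from day 0 to 3 had 7 without WT replicate 4 of day 0 or WT replicate 1 of day 3. Depth limited SCN10A, CACNG1 and CACNA1S, whose counts were near 0 in several groups.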

Other observations

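Marker lists of other cell types were read beside the channel genes in KO against WT with edgeR's quasi-likelihood test. Of all genes, 12.6% were higher and 8.93% lower at day 3, and 17.0% and 15.6% at day 7. Neuronal markers were higher for 8 of 8 genes at day 3 and 4 of 8 at day 7, and dividing-cell markers lower for 4 of 6 and 5 of 6. Skeletal muscle markers were lower for 1 of 6 tested genes at day 3 and 6 of 6 at day 7. Peripheral or sensory neuron markers were higher for 3 of 3 tested at day 3, and at day 7 1 of 4 was higher and 1 lower. Neural progenitor markers were higher for 1 and lower for 1 of 7 at day 3, and lower for 3 of 7 at day 7. Astrocyte and oligodendrocyte markers were higher for 1 of 5 at day 3, and at day 7 1 of 6 was higher and 2 were lower. Pluripotent stem cell markers were higher for 1 of 5 at day 3, and at day 7 2 of 3 were higher and 1 was lower. Heart muscle markers were lower for 1 of 3 at day 3 and for the 1 tested at day 7, and neither of 2 photoreceptor markers was called on either day. In HET at day 7, 3 of 8 neuronal markers were higher, 5 of 6 dividing-cell markers were lower and none of 6 skeletal muscle markers was called. There 8.31% of all genes were higher and 6.1% lower.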
